A study of Mus musculus with 2 samples.

Results

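The cell cycle genes described here are 40 mouse genes of the core engine: cyclins, cyclin-dependent kinases (CDKs), CDK inhibitors, the pocket proteins with the E2F and DP transcription factors that they bind, and the kinases and phosphatases that switch CDKs on and off or run mitosis. They were chosen by gene symbol, and all 40 of 40 were found among the 43629 Ensembl genes listed in the deposited count files. The study deleted part of Dicer1, the gene of the RNase that cuts microRNA precursors, in the mouse embryonic stem cell (mESC) line E14TG2a with paired CRISPR/Cas9 cuts, and made a pair of deletions in separate lines that each grew from a sorted cell. PolyA RNA was sequenced in 2 libraries, both labelled Dicer knockout (Dicer_KO), of 129/Ola background and blastocyst origin. Replicate 1 was taken at passage 7 and replicate 2 at passage 4. The labels do not say which deletion a library carries, so line, passage and library cannot be told apart, and the cells were by the study's methods kept in serum with leukaemia inhibitory factor unless otherwise stated. Both libraries belong to the same condition and wild-type libraries were not analysed here, so nothing below is an effect of losing Dicer1. The values give the levels of the cell cycle genes in Dicer_KO mESCs and how far the libraries lie apart, with no test.

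Cells enter the cycle when D cyclins, bound to CDK4 or CDK6, and then E cyclins, bound to CDK2, phosphorylate the pocket proteins and so free E2F factors, which switch on genes of DNA replication. The INK4 proteins block CDK4 and CDK6, while p27, the product of Cdkn1b, blocks cyclin E with CDK2. Cyclin B with CDK1 drives mitosis, held back by WEE1 and released by CDC25 phosphatases. Mouse ES cells are known for a short G1 phase, and Dicer-dependent microRNAs of the miR-290 family, which share the seed of miR-295, are known to ease the passage from G1 to S phase in them.

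The totals were 41710122 counts in replicate 1 and 41566184 in replicate 2, of which the 40 genes held 0.319% and 0.368%. Markers of pluripotent cells were high, with Dppa5a at 22614 and 10021 TPM (a level per transcript length, scaled to the same total in each library), Pou5f1 at 1217 and 1399 TPM, and Nanog at 1485 and 855 TPM in replicates 1 and 2. Trophectoderm markers were present at low level and moved with the library, since the 5 that averaged 10 or more counts were all beyond 2-fold higher in replicate 1, and the summed level of that 6-gene list was 86.8 TPM in replicate 1 and 29.7 TPM in replicate 2. Tfap2c alone gave 71.2 and 26.1 TPM of these sums, the other 5 genes 15.6 and 3.63 TPM, and the defining marker Cdx2 had 6 and 1 counts. Primitive endoderm markers summed to 12.3 and 7.09 TPM, of which Gata4 gave 10.5 and 5.96, and 4 of the 5 that averaged 10 or more counts were higher in replicate 1, 2 of them beyond 2-fold, at a median log2 ratio of 0.76. Fibroblast markers summed to 19.6 and 15.6 TPM, nearly all from Thy1 (823 and 621 counts), while Postn had 0 counts in both libraries and Dcn 0 and 19. Neuroectoderm markers summed to 21.8 and 24.0 TPM, mostly from Nes (19.3 and 21.1 TPM). Mesoderm markers summed to 0.817 and 1.09 TPM, with Mixl1 at 22 and 16 counts and Actc1 at 0 in both. The part of such cells in the differences given below was not tested. In bulk RNA, fewer cells of a type and less RNA per cell cannot be told apart. Dicer1 had 1343 counts in replicate 1 and 1510 in replicate 2, counted over the whole gene. Reads inside the deleted stretches cannot be set apart in a count per gene, so this count does not check the labels.

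The mature sequences of the microRNAs that the study probed on blots, miR-295 and miR-16, and of let-7a, a microRNA family known to restrain the cell cycle, are shown for their seeds, since Dicer cuts their precursors. No microRNA was measured in these libraries. The sequences are from RefSeq (GRCm38.p6), with the seed, bases 2 to 8, in capitals.

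mmu-miR-295-3p: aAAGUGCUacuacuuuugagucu
mmu-miR-16-5p: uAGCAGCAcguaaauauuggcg
mmu-let-7a-5p: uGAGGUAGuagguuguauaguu

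The complement of each seed was searched on the sense strand of the annotated 3′ UTRs of the 40 genes. For miR-295 these letters are AGCACTT, found in 11 of 40 genes (27.5%), against 15.5% of 21021 protein-coding genes with a 3′ UTR. For miR-16 they are TGCTGCT, found in 14 (35%), against 21.2%. For let-7a they are CTACCTC, found in 8 (20%), against 9.51%. Their 3′ UTRs were also longer, with a median of 1163 bases against 961 over all genes, and the share of a list was not tested. E2f7 was the only member with matches to all 3, and 19 members had none, among them Ccna2, Ccnb1, Ccnb2, Cdk2, Cdkn1b, Cdkn2a, E2f1, Rb1 and Plk1. The stretches below show members of the G1 to S step with the match in capitals and 11 bases on either side, on the sense strand of GRCm38. They are letters in a transcript and do not show that a microRNA binds there.

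Ccnd1, miR-295 letters, chr7:144931666-144931694, minus strand: ttccatttcaaAGCACTTttggtcagcta
Ccnd2, miR-295 letters, chr6:127129330-127129358, minus strand: tccattagaaaAGCACTTtgaaaattttg
Cdk4, miR-295 letters, chr10:127067551-127067579, plus strand: aatgcttgccgAGCACTTgtgaggccctg
E2f2, miR-295 letters, chr4:136193328-136193356, plus strand: ctttttcaagaAGCACTTaacgcctttgt
Rbl1, miR-295 letters, chr2:157147467-157147495, minus strand: tgcctgatcaaAGCACTTttggattgttc
Ccnd2, miR-16 letters, chr6:127128531-127128559, minus strand: gtttcacggtgTGCTGCTattttagaaac
Ccne1, miR-16 letters, chr7:38098013-38098041, minus strand: tattttgtaagTGCTGCTatgtctatcaa
Cdc25a, miR-16 letters, chr9:109892859-109892887, plus strand: cagaccagtatTGCTGCTactcaaagtca
Cdc25a, let-7a letters, chr9:109892736-109892764, plus strand: catcctaggagCTACCTCtacttttaatt

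All 40 genes had at least 10 counts in both libraries, which held for 16704 of 43629 genes in all, and 39 had at least 100 in both. The exception was Cdkn2c, with 47 and 30 counts. Levels between genes are given in TPM, computed over the merged exons of each gene. They spanned from Cdkn2c, at 1.23 TPM in replicate 1 and 0.817 in replicate 2, to Cdk4, at 288 and 412 TPM. In the order of mean levels, 30 of the 39 neighbouring pairs had ranges over the libraries that overlapped. The 9 pairs without overlap included the leading ones, Cdk4 above Ccnb2, Ccnb2 above Ccna2 and Ccna2 above Aurka (over the longest transcript, Ccnb2 and Ccna2 had means of 214 and 207 TPM), as well as Cdk6 above Cdkn2c. Of all 780 pairs of members, 706 stood in the same order in both libraries, so the ranking was largely shared although many single levels differed.

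**Figure D1:**
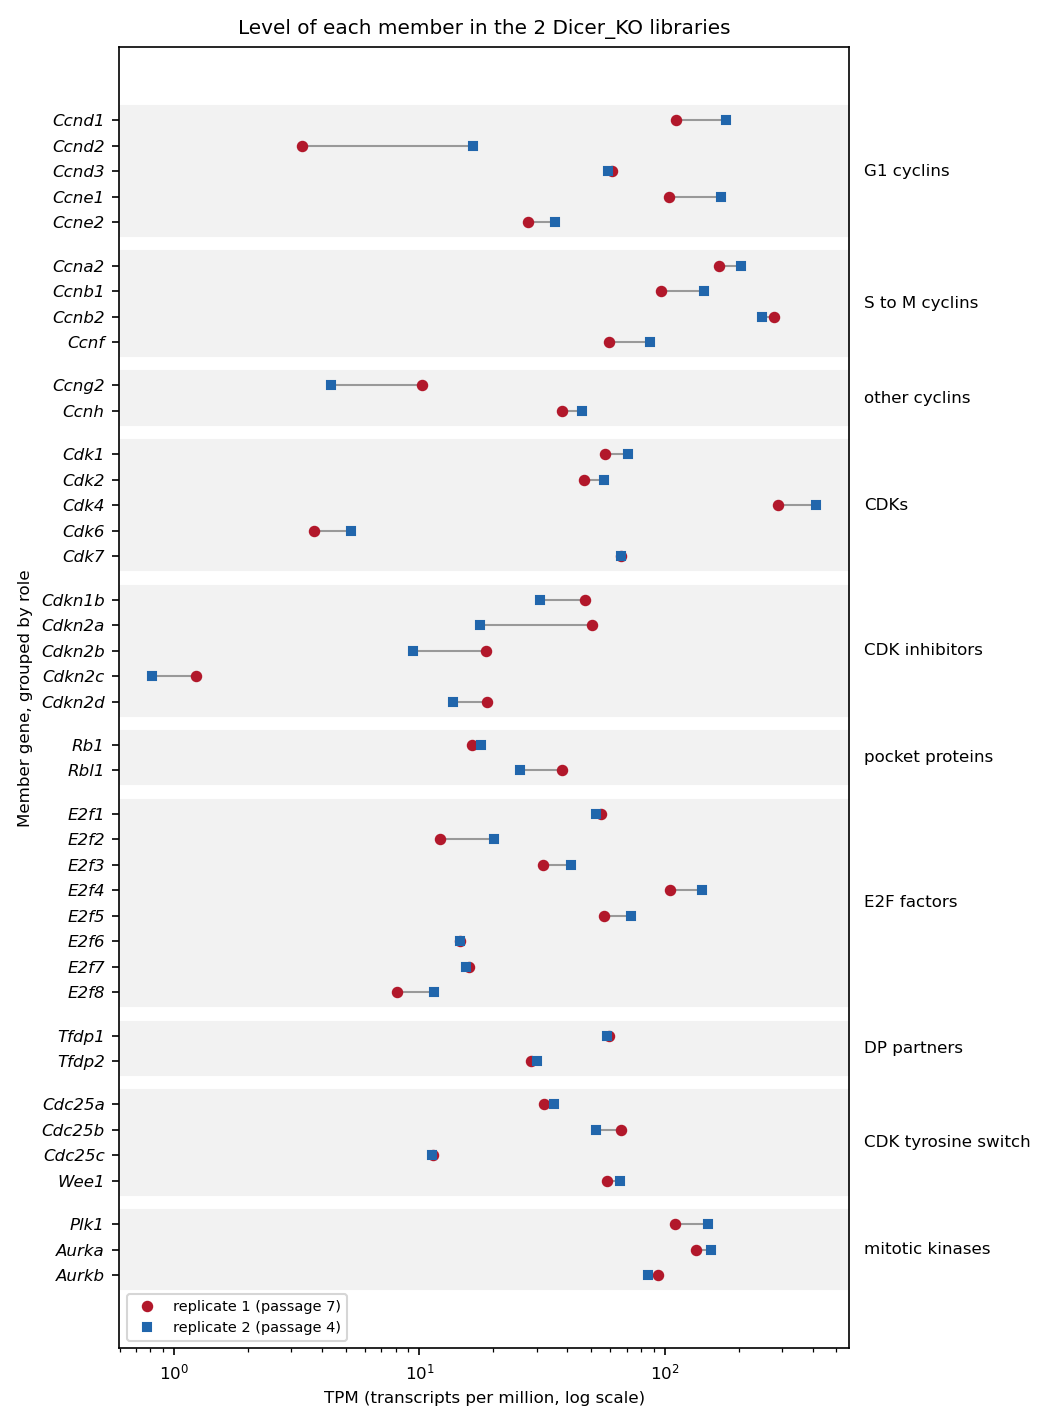
Level of each of the 40 cell cycle genes in TPM (log axis), with circles for replicate 1 (passage 7), squares for replicate 2 (passage 4) and a line joining them, grouped by role. Cdk4 is the highest at 288 and 412 TPM and Cdkn2c the lowest at 1.23 and 0.817 TPM, and all 5 CDK inhibitors have the circle to the right of the square.

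Differences between the libraries are given as the log2 ratio of replicate 1 over replicate 2, after scaling by TMM (trimmed mean of M values, a scaling that assumes most genes alike), with a 95% interval that covers counting error only. Of the 40 genes, 3 were beyond 2-fold in either direction (7.5%), against 21.4% of the 17788 genes that averaged 10 or more counts. Ccng2 and Cdkn2a were beyond 2-fold higher in replicate 1, where 14.2% of all genes were, and Ccnd2 was beyond 2-fold lower, where 7.14% were. Of the 13005 genes averaging 100 or more counts, which is closer to the depth of the members, 14% were beyond 2-fold. With so few members past 2-fold, no difference from genes in general is read from these shares. The interval excluded 0 for 32 of the 40 (80%), against 73.2% of all genes, so the libraries differed by more than counting error in most genes and are not the same library deposited under separate names.

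The direction leaned to replicate 2. Only 11 of the 40 genes (27.5%) were higher in replicate 1, against 51.3% of all genes, and the median log2 ratio was -0.22 (quartiles -0.51 and 0.02), against 0.02 for all genes. With total counts the members' median was -0.10. With scaling by total counts, 17 of the 40 and 58.7% of all genes were higher in replicate 1, since that scaling moved the median of all genes from 0.02 to 0.14. Relative to the median of all genes, 30 of the 40 lay below it. A change of scaling moves all genes by nearly the same amount, so this number could hardly differ between scalings. The genes that changed sign with total counts were Ccnd3, Cdk7, E2f6, E2f7, Tfdp1 and Cdc25c, each within 0.11 of 0. The counting interval of 8 members held 0 under TMM and that of 6 with total counts, 4 of them shared (Cdk7, Cdkn2c, E2f6 and Cdc25c). With total counts those of Ccnd3, E2f1, E2f7 and Tfdp1 no longer held 0, and those of Rb1 and Tfdp2 did. No member lies on chromosome 15.

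**Figure D2:**
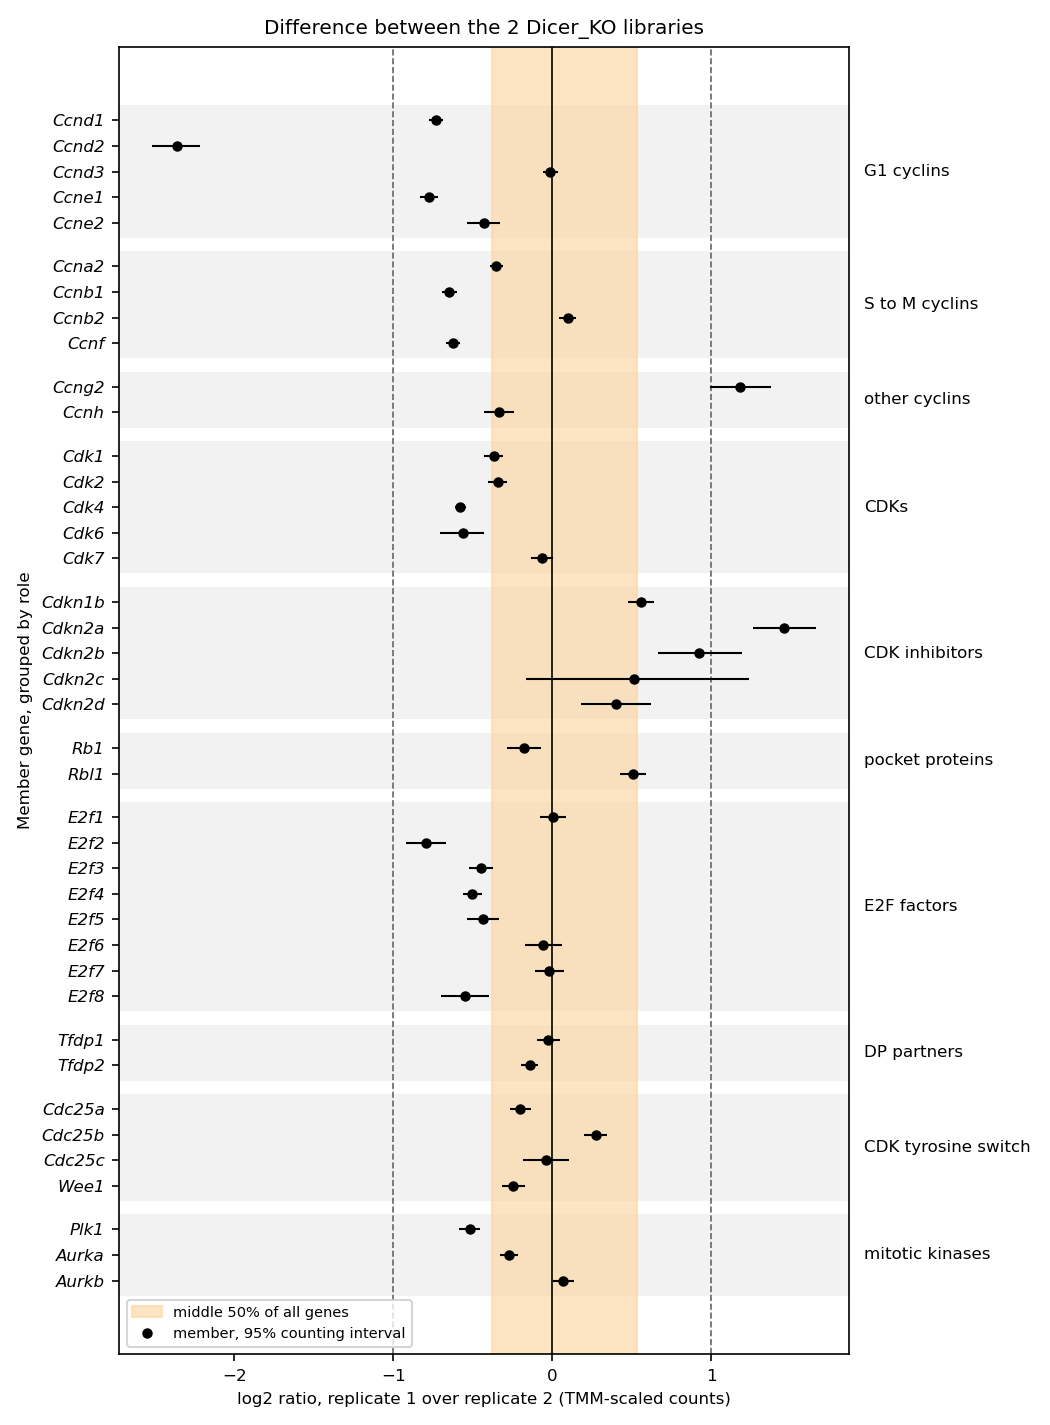
Log2 ratio of replicate 1 over replicate 2 for each of the 40 genes (points) with its 95% counting interval (bars), the middle 50% of all genes from -0.38 to 0.54 (shaded) and 2-fold (dashed). Ccnd2 lies at -2.36, Cdkn2a at 1.46 and Ccng2 at 1.18, and all 5 CDK inhibitors lie to the right of 0.

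G1 cyclins were the class with the lowest median log2 ratio, -0.73, and Ccnd2 differed most among the 40 genes. Ccnd2, which encodes cyclin D2 (ENSMUSG00000000184, 5 exons on the minus strand of chromosome 6), had 448 counts in replicate 1 and 2119 in replicate 2. Its log2 ratio was -2.36 (interval -2.51 to -2.22), a level 5.14-fold higher in replicate 2, and it was the only member beyond 4-fold. Cyclin D1, the product of Ccnd1, is the D cyclin best known as a sensor of growth signals. Ccnd1 had 7459 and 11379 counts in replicates 1 and 2, a log2 ratio of -0.73 (-0.77 to -0.69). Ccnd3, the remaining D cyclin gene, had 7603 and 7038 counts, a log2 ratio of -0.01 whose interval, -0.06 to 0.04, held 0. The D cyclin genes therefore differed unequally, and the Ccnd3 interval held 0 under TMM but not with total counts (0.06 to 0.15).

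Over merged exons, Ccnd1 was the leading D cyclin gene. It made up 63.4% of the summed D cyclin level in replicate 1 and 70.2% in replicate 2. Ccnd3 made up 34.7% and 23.3%, and Ccnd2 1.91% and 6.54%. The length used for Ccnd3 matters here, because its merged exons span 8775 bases and its longest transcript 3858. With the longest transcript its mean level was 110 TPM in place of 59.7, and its mean share 42.0% in place of 29.0%. With that length Ccnd1 and Ccnd3 were nearly level in replicate 1, at shares of 49.4% and 48.8%, while Ccnd1 led in replicate 2, at 58.5% against 35.1%.

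E cyclins, which act with CDK2 at the entry to S phase, were both lower in replicate 1. Ccne1 had 3934 and 6184 counts in replicates 1 and 2, a log2 ratio of -0.77 (-0.83 to -0.72). Ccne2 had 1376 and 1703 counts, at -0.43 (-0.53 to -0.33). Ccne1 was the main gene of the pair, with 79.0% of their summed TPM in replicate 1 and 82.7% in replicate 2.

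Among the cyclins of S phase and mitosis, Ccnb2 was the exception in direction. It had 6087 counts in replicate 1 and 5222 in replicate 2, with a log2 ratio of 0.10 (0.05 to 0.15). Ccnb1, its partner in the B cyclin family, had 5810 and 8355 counts, at -0.65 (-0.69 to -0.60). Per length, Ccnb2 was the higher of the pair in both libraries, at 278.5 and 249.4 TPM against 96.5 and 145 TPM for Ccnb1. Over the longest transcript this lead was nearly gone in replicate 2, at 202 TPM for Ccnb2 and 199 TPM for Ccnb1, and the mean share of Ccnb1 in the pair was 43.3% in place of 31.2%. The Ccnb1 count is also uncertain, since 23.4% of the 50-base words of its transcripts are shared with other genes, first of all Ccnb1-ps. Ccna2, the cyclin A of dividing cells, had 9698 and 11360 counts, at -0.35 (-0.39 to -0.31). Ccnf, which encodes an F-box protein of an SCF ubiquitin ligase, had 6577 and 9303 counts, at -0.62 (-0.67 to -0.58). The remaining cyclins stand outside this engine. Ccnh, a part of the CDK-activating kinase, had 1681 and 1948 counts, at -0.33 (-0.43 to -0.24). Ccng2, whose cyclin G2 is known as a growth-restraining cyclin of resting cells, went the other way with 801 and 324 counts, at 1.18 (1.00 to 1.37). Of all 11 cyclin genes, 9 were lower and 2 higher in replicate 1, where 51.3% of all genes were higher. With total counts Ccnd3 also turned higher, and 58.7% of all genes were higher.

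All 5 CDK genes had ratios below 0, where 51.3% of all genes had ratios above 0, although the sign for Cdk7 turned with total counts. Cdk4, the highest of the 40 genes, had 13359 counts in replicate 1 and 18311 in replicate 2, a log2 ratio of -0.58 (-0.61 to -0.54). Cdk6, which shares its cyclins and inhibitors, had 744 and 1011 counts, at -0.56 (-0.70 to -0.43). Per length these kinases were far apart, since Cdk6 stood at 3.72 and 5.28 TPM, and Cdk4 held 98.7% of their summed TPM in both libraries. Cdk1, the kinase of mitosis, had 4030 and 4776 counts, at -0.37 (-0.43 to -0.31). Cdk2, the partner of E and A cyclins, had 4140 and 4820 counts, at -0.34 (-0.40 to -0.28). Cdk7, the catalytic subunit of the CDK-activating kinase, had 3505 and 3361 counts, at -0.06 with an interval of -0.13 to 0.01 that held 0.

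CDK inhibitors were the only class of at least 3 genes in which every member was higher in replicate 1, as 51.3% of all genes were. The size factors of DESeq2 and total counts both move ratios upward from TMM, so they could not turn these signs. Cdkn2a (ENSMUSG00000044303, minus strand of chromosome 4, 89274471 to 89294653) had 847 counts in replicate 1 and 283 in replicate 2, a log2 ratio of 1.46 (1.26 to 1.66). Its count merges a pair of unrelated proteins, the INK4 inhibitor p16 and the p53 activator ARF, whose transcripts start at separate promoters. Cdkn2b, the neighbouring gene that encodes p15, had 371 and 179 counts, at 0.93 (0.67 to 1.19), and with total counts it came to 1.04, past 2-fold. Cdkn2d, the gene of p19 INK4d, had 424 and 295 counts, at 0.40 (0.18 to 0.62). Cdkn2c, the gene of p18, had a log2 ratio of 0.51 with an interval from -0.17 to 1.24, so a difference was not detectable at its depth. Cdkn1b, the gene of p27, had 3083 and 1921 counts, at 0.56 (0.48 to 0.64). Several markers were also higher in replicate 1, among them the trophectoderm markers (86.8 and 29.7 TPM in sum). So were 4 of 5 primitive endoderm markers (median log2 ratio 0.76), which apart from Gata4 had few counts. Of the 10 pluripotent cell markers, 5 were higher, among them Dppa5a (1.11) and Nanog (0.74), and 5 were lower, at a median of -0.01. The part of these markers in the inhibitors' difference was not tested.

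The INK4 genes together, with Cdkn2a counted whole although ARF is no INK4 protein, came to 89.4 TPM in replicate 1 and 41.6 TPM in replicate 2. Cdkn2a held 56.6% and 42.4% of these sums, Cdkn2d 21.1% and 32.9%, Cdkn2b 20.9% and 22.6%, and Cdkn2c 1.37% and 1.96%. Set against their target kinases, the ratio of summed INK4 TPM to summed Cdk4 and Cdk6 TPM was 0.306 in replicate 1 and 0.0997 in replicate 2. The same ratio for D cyclins over merged exons was 0.5998 and 0.6033 in sum. Over the longest transcript this ratio was higher in replicate 1, and the libraries lay further apart. Singly, the D cyclin genes had log2 ratios from -2.36 to -0.01 beside -0.58 for Cdk4. Without Cdkn2a the INK4 ratio was 0.133 and 0.0574. For B cyclins over Cdk1 it was 6.55 and 5.57. These ratios were formed after the counts had been seen, and transcripts do not give the amounts of protein.

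**Figure D3:**
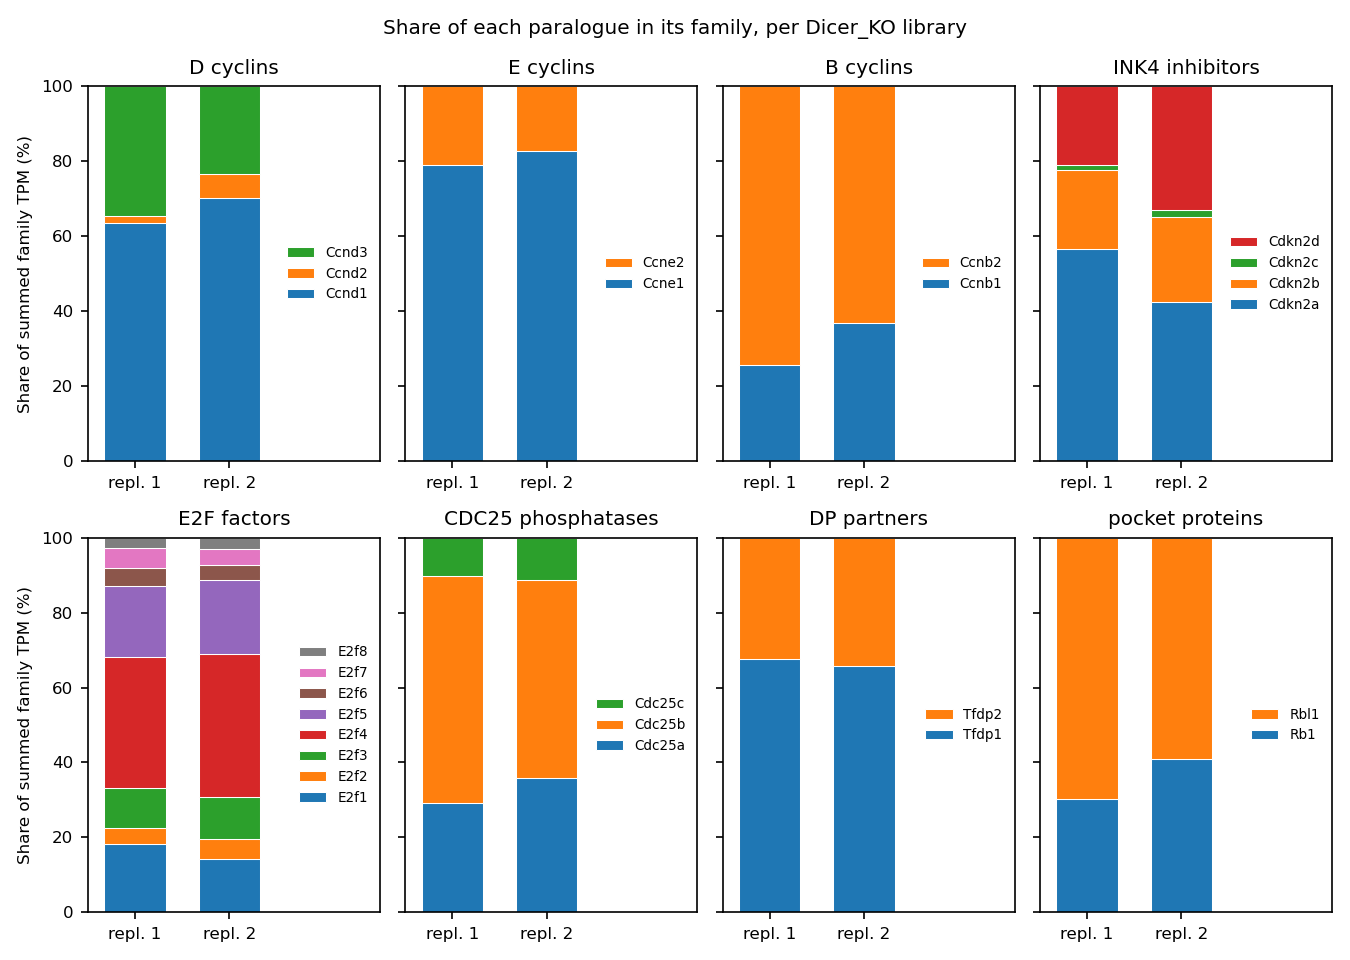
Share of each gene in the summed TPM of its family (stacked bars from 0 to 100%), with a bar for each Dicer_KO library. Ccnd1 makes up 63.4% and 70.2% of the D cyclins, Cdkn2a 56.6% and 42.4% of the INK4 inhibitors and E2f4 35.0% and 38.3% of the E2F factors.

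Because the Cdkn2a count cannot tell its products apart, both RefSeq promoter windows of the gene are shown, each from 250 bases before to 50 after a transcript start (GRCm38.p6, minus strand). Capitals mark E2F letters (TTTGGCGC, TTTCGCGC, TTTCCCGC or TTTGCCGC), the CHR letters TTTGAA and the CCAAT letters, on either strand. The CHR element and CCAAT boxes are known from promoters of mitotic genes, and the windows of Cdk1 and Ccnb2, which hold several of them, are shown for comparison. The CHR and CCAAT words do not overlap each other or an E2F word in these windows.

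Cdkn2a, upstream window, chr4:89294570-89294869: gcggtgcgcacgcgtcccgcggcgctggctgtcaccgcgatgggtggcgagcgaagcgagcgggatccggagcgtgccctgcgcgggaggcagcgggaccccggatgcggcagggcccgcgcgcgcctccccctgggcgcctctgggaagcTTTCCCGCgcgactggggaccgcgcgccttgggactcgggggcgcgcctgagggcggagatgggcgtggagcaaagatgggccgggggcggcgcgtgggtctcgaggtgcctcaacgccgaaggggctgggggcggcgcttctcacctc
Cdkn2a, downstream window, chr4:89282143-89282442: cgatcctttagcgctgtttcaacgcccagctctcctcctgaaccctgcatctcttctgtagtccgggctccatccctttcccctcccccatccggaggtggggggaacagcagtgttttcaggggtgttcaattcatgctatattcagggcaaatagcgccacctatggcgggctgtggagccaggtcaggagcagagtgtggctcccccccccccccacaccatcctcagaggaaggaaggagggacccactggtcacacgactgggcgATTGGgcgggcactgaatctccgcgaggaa
Cdk1, chr10:69352863-69353162, minus strand: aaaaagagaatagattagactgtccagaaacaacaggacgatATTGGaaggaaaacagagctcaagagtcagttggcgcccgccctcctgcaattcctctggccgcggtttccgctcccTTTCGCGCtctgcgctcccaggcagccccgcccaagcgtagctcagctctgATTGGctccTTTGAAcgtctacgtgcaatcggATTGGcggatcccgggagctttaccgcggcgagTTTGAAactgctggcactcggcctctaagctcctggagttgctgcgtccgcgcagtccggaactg
Ccnb2, chr9:70421505-70421804, minus strand: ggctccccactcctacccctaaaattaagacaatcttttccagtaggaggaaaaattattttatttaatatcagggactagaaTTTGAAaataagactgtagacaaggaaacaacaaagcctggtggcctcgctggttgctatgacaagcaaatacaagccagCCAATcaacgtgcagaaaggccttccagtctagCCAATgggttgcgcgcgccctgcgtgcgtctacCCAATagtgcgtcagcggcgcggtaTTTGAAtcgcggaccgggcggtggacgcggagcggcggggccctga

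RefSeq windows were at hand for 29 of the 40 genes, 36 windows in all. E2F letters were in 10 of the 36 (27.8%), against 2.26% of all 32851 windows and 2.85% of the 21263 windows of protein-coding genes. The 9 genes were Cdc25a, Cdk1, Cdk2, Cdkn2a, E2f2, E2f3, E2f7, Rbl1 and Tfdp1. Tfdp1 was counted with a pair of overlapping windows that hold the same E2F site. CHR letters were in 9 windows (25%), against 17.9% of all, and CCAAT letters in 19 (52.8%), against 37.4%. The genes with CHR letters were Aurka, Ccnb2, Ccnf, Cdk1, Cdkn2b, E2f2, E2f3, E2f8 and Plk1. No use of these letters was measured.

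The pocket proteins, which hold E2F factors in check, went apart. Rb1, the retinoblastoma gene, had 1409 counts in replicate 1 and 1463 in replicate 2, a log2 ratio of -0.18 (-0.28 to -0.07). Rbl1, which encodes p107, had 3244 and 2095 counts, at 0.51 (0.43 to 0.59). Rbl1 stood above Rb1 per length in both libraries, at 37.9 and 25.6 TPM against 16.4 and 17.8 TPM.

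E2f4, a factor known mainly for repression together with pocket proteins, was the leading E2F gene with 35.0% of the summed E2F level in replicate 1 and 38.3% in replicate 2. E2f5, its closest relative, followed with 18.9% and 19.7%, and E2f1, the best-known activator, with 18.4% and 14.1%. The order of E2f5 and E2f1 rests on the length used, since over the longest transcript E2f1 was the higher in replicate 1 (17.4% against 15.7%) and E2f5 in replicate 2 (16.5% against 13.6%). The summed level of the activators E2f1 to E2f3 over that of E2f4 to E2f8 was 0.494 in replicate 1 and 0.445 in replicate 2. The family sums were 298 and 371 TPM.

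Between the libraries, E2f1 had 2467 and 2261 counts and a log2 ratio of 0.00 (-0.08 to 0.09), which with total counts was 0.12 (0.04 to 0.20). E2f2, another activator, had 845 and 1345 counts, at -0.79 (-0.92 to -0.67), the lowest of the family. E2f3, the third activator, had 2464 and 3090 counts, at -0.45 (-0.53 to -0.37). These genes of like role thus differed unequally. E2f4 had 3658 and 4758 counts, at -0.50 (-0.56 to -0.44), and E2f5 had 1434 and 1781, at -0.43 (-0.54 to -0.33). The repressor E2f6, which acts without pocket proteins, had 1187 and 1133 counts, at -0.06 (-0.17 to 0.06). The atypical factors E2f7 and E2f8 repress E2F targets without a DP partner. E2f7 had 2054 and 1911 counts, at -0.02 (-0.11 to 0.07). E2f8 had 632 and 849 counts, at -0.55 (-0.70 to -0.40). For E2f1, E2f6 and E2f7 the interval held 0, and of these only that of E2f6 did so with total counts.

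The DP proteins, dimer partners of E2F1 to E2F6, differed little between the libraries. Tfdp1 had 3109 and 2903 counts, at -0.02 (-0.10 to 0.05), although 16.8% of its 50-base words occur in Gm7390 and its count is uncertain. Tfdp2 had 5704 and 5776 counts, at -0.14 (-0.19 to -0.09). Their summed level was 87.8 TPM in replicate 1 and 87.9 TPM in replicate 2, and the log2 ratio of that sum was -0.06 on the TMM scale.

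The phosphatases that remove the inhibitory phosphates from CDKs did not move as a family. Cdc25a, the form of the G1 to S step, had 3686 counts in replicate 1 and 3890 in replicate 2, at -0.20 (-0.27 to -0.13). Cdc25b had 3523 and 2679 counts, at 0.27 (0.20 to 0.35). Cdc25c had 799 and 754 counts, at -0.04 with an interval of -0.18 to 0.11. Wee1, the kinase that sets these phosphates, had 2823 and 3072 counts, at -0.24 (-0.32 to -0.17). Cdc25b had the largest share of the family over merged exons, 60.3% and 53.0%, while over the longest transcript the mean shares of Cdc25a and Cdc25b were 43.9% and 43.3%, so their order rests on the length used.

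Of the mitotic kinases, Plk1, which acts at centrosomes and kinetochores, had 3435 and 4523 counts in replicates 1 and 2, at -0.52 (-0.58 to -0.45). Aurka, the kinase of spindle poles, had 4818 and 5349 counts, at -0.27 (-0.33 to -0.22). Aurkb, the kinase of the chromosomal passenger complex, had 3929 and 3438 counts, at 0.07 (0.00 to 0.14). Per length the 3 genes stood between 85.3 and 155 TPM, and by mean level they held ranks 4 (Aurka), 7 (Plk1) and 10 (Aurkb). Their ranks in replicates 1 and 2 were 4 and 6 for Aurka, 6 and 7 for Plk1, and 10 and 11 for Aurkb.

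Other genes of the cell cycle leaned the same way, in 7 lists with 91 genes that hold none of the 40. Of these, 67 were lower and 24 higher in replicate 1, where 51.3% of all genes were higher. The lists were chosen with earlier results of these data known and were counted in the same 2 libraries. They are therefore no separate support for the direction of the 40. Beyond 2-fold, 2 were lower, against 7.14% of all genes, and 0 were higher, against 14.2%. In replication licensing, which loads the MCM helicase on origins, 16 of 19 genes were lower, with a median log2 ratio of -0.45. Among nucleotide and replication enzymes 9 of 12 were lower, at a median of -0.50, and Rrm2, a subunit of ribonucleotide reductase, had 5529 and 12762 counts, at -1.33. Of the mitotic kinesins and cohesin 9 of 11 were lower, at -0.61, and Pttg1, the gene of securin, had 782 and 1764 counts, at -1.29. In the mitotic checkpoint and APC/C list 13 of 16 were lower, at -0.41. The lists of DREAM and MuvB factors (-0.09) and of the SCF ligase (-0.16) lay nearer to the median of all genes, each with 6 of 8 genes lower. Only the other cyclins and CDK regulators had a median above 0, at 0.21, with 9 of 17 genes higher in replicate 1. With total counts the medians of the licensing, enzyme, checkpoint and kinesin lists kept their sign, while that of the DREAM and MuvB list turned to 0.03.

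**Figure D4:**
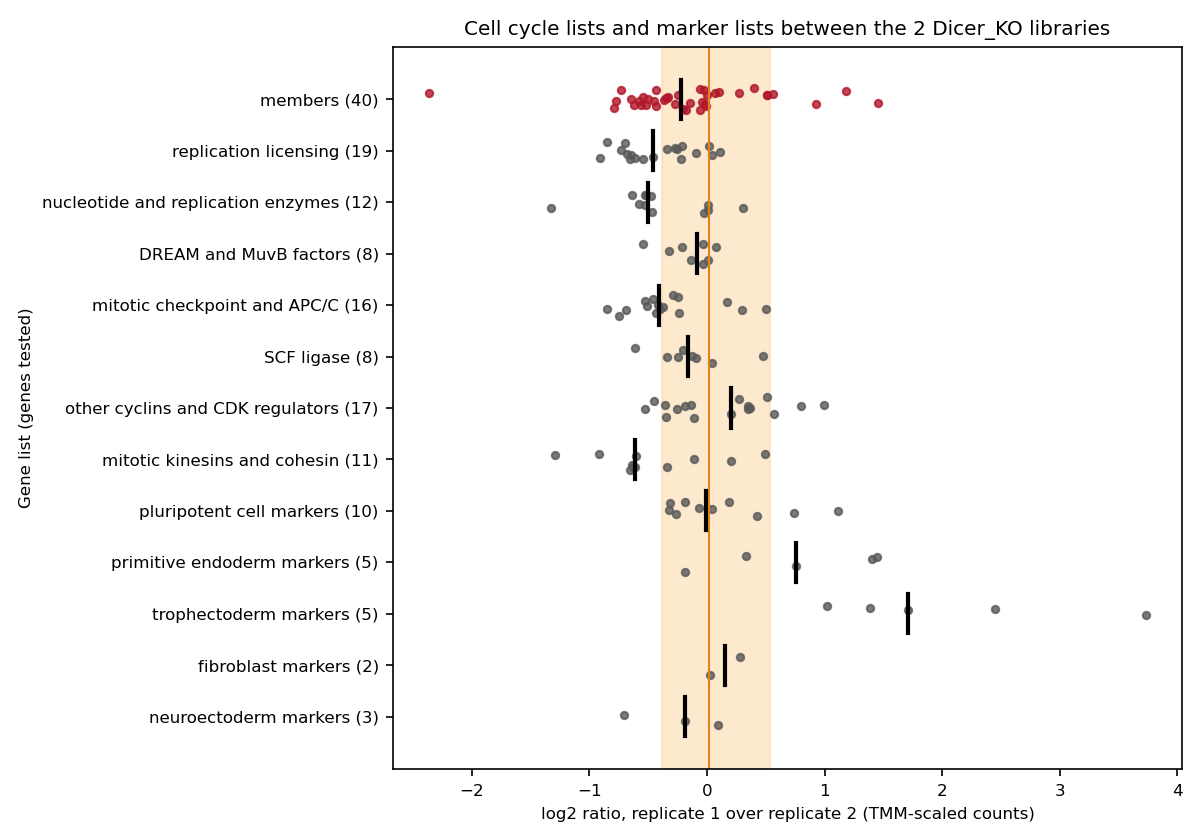
Log2 ratio of replicate 1 over replicate 2 for the genes (points) of each list that averaged 10 or more counts, with the list median (black bar), the median of all genes (orange line) and their middle 50% (shaded). The replication and mitosis lists centre between -0.41 and -0.61, while the 5 trophectoderm markers lie between 1.019 and 3.73. The mesoderm list, with a single gene past that minimum, is left out.

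The counts of some members depend on how reads that could belong to another gene were treated, at another locus or on the opposite strand of the same locus. Of the 40 genes, 21 shared no 50-base word of their transcripts with another annotated gene, on either strand, and 9 shared over 10% of them. These were Ccnd1 (21.6%, with LTO1), Ccnb1 (23.4%), Cdk4 (17.0%, first with Tspan31), Tfdp1 (16.8%), Ccne2 (14.4%, with Ints8), Rb1 (12.0%, first with Rcbtb2), Cdc25c (11.9%, first with Gm3550), Ccna2 (11.4%, with Exosc9) and Plk1 (10.4%, first with Plk-ps1). Exons of genes on the opposite strand covered 23.4% of the merged exons of Ccnd1, 19.7% of Cdk4 and 17.4% of Ccne2. They covered 14.9% of Rb1, 12.7% of Cdc25c, 12.5% of Ccna2 and 7.09% of Plk1, and none of Ccnb1 and Tfdp1. In such overlaps the count turns on the strand setting of the counting, which is not given. None of the 5 CDK inhibitors and neither Ccng2 nor Ccne1 shared any words, and Ccnd2 shared 6.31%.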

How the data were processed

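The 2 Dicer_KO libraries were mapped to their group by the sample titles. The authors trimmed reads, aligned them to mm10 with STAR (2.4.2a) and used featureCounts (1.4.5-p1) for Ensembl genes, where reads falling in overlaps of genes were not counted. What the authors deposited are raw counts per gene. The labels call the libraries reverse-stranded, while the strand setting of the counting and the handling of multiply aligned reads are not given in the sources used here. Gene models came from GENCODE M21 (GRCm38, the same build), in which 1081 listed identifiers, with 0.152% and 0.168% of the counts, had no entry.

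Counts were divided by merged exon length to give TPM. Ratios used TMM factors of edgeR (4.0.16, R 4.3.3) with a pseudocount of 1, and exact binomial 95% intervals of the split of counts (scipy 1.17.1), which cover counting error only. A count of 3 equals 0.0719 and 0.0722 CPM. The ratio step was checked on simulated data in which few genes were changed, as many raised as lowered. In these libraries 14.2% of genes were beyond 2-fold higher in replicate 1 and 7.14% lower, a setting that this check does not cover. No test was run, since both libraries form 1 group. Wild-type counts in the study's supplement were not used here. Alternatives were size factors of DESeq2 (1.42.0), total counts, other minimums, folds, pseudocounts and lengths, and other motif and seed rules, with a few added after the data were seen. All 40 members are named. Of the other lists, genes averaging 100 or more counts and lying beyond 2-fold between the libraries are named, at most 5 per list, and leading markers. Cdx2, Postn, Dcn, Actc1, Gata6 and Sox17 were added after their values were seen. Members and lists were chosen with earlier results of these data known.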

Additional observations from a re-analysis of the deposited data

How the results depend on the processing

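No paired analysis was possible because the design has no second group to pair with. Leaving out a library leaves only the value of the other, which shows nothing of stability. The number of members beyond 2-fold was 3 (21.4% of all genes), and 4 with total counts (22.1% of all genes), where Cdkn2b was added. With the fold set to 1.5 it was 9 (39.6% of all genes), and with 4-fold it was 1 (5.71%). Over the longest transcript in place of merged exons, the mean summed level was 58.8 TPM for the other cyclins (49.2), 693 TPM for CDKs (536), 108.1 TPM for DP partners (87.9) and 184 TPM for the CDK tyrosine switch (166). The mean of Ccnd3, Cdc25a, Cdk2, Cdk7, Ccnf, Cdc25c, E2f6 and Tfdp2 was over 1.5 times higher with that length, and the mean ratio of INK4 to Cdk4 and Cdk6 TPM was 0.153 in place of 0.203, an alternative added after the data were seen. On the plus strand alone, E2F letters were in 5 genes (9 on both) and CCAAT letters in 11 (18). By window these were 13.9%, against 1.2% of all windows, and 33.3%, against 21.1%. With the 6 bases 2 to 7 of the seed, miR-295 letters were in 19 genes (47.5%, against 29.8% of protein-coding genes). Those of let-7a were in 16 (40%, against 24.5%). With the 7 letters followed by an A, matches were in 3 genes for miR-295 (7.5%, against 3.19% of protein-coding genes). For miR-16 they were in 6 (15%, against 4.19%) and for let-7a in 3 (7.5%, against 3.25%). Apart from leaving out a library, another 23 recomputed summary values were counted as little changed, by 1 SD of the libraries for levels and 1.5 times for counts. A log2 ratio between the libraries has no such SD. The members' median log2 ratio was among the 23, but it went from -0.22 to -0.10 with total counts, so no stability is read from it. For single genes, families and lists, 148 recomputed values were counted as little changed and 64 as moved. The 148 included 40 ratios with the other pseudocount and 40 with the size factors of DESeq2, settings that hardly move a ratio at these depths. They also included the DREAM and MuvB median, whose sign turned with total counts, so no stability is read from this number. Of the moved, 29 were log2 ratios of single genes with total counts, each of which then lay outside its TMM counting interval. Total counts moved all members by nearly the same amount, so these 29 are the genes with narrower intervals, not those with less stable ratios. Cdkn2c, with 30 counts in replicate 2, had the least depth.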
